A study of Rattus norvegicus with 5 samples.

Results

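The genes of the constitutive proteasome were followed in the rat insulinoma line INS-1 and in 4 clones made from it. Members were all genes whose platform symbol begins with Psma, Psmb, Psmc, Psmd, Psme, Psmf or Psmg, without the immunoproteasome genes Psmb8, Psmb9 and Psmb10. The rule used no measured value. It found 40 genes, covered by 43 probe sets, among 10411 genes with a probe set of a single symbol. The 5 arrays were 1 of the parental line, 1 each of the clones numbered 2 and 16 of set 1-1, and 1 each of the clones numbered 14 and 19 of set 5-3. INS-1 cells secrete insulin. The clones are of the FLP-In T-REx type: such cells carry a tetracycline repressor and a recombination site into which Flp can insert a gene. No inserted gene, induction or treatment is named for them. Each clone is a single clonal line, and the labels do not explain the set names. Clones of the same set are called sisters here, although the labels do not say whether they share an origin.

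The proteasome is the barrel-shaped protease that degrades proteins tagged with ubiquitin. Its core particle is a stack of alpha rings, which gate the entrance, and beta rings, which hold the catalytic sites. A regulatory particle binds the end of the core: its base contains the ATPases that unfold the substrate, and its lid removes the ubiquitin chain. Other activators can replace the regulatory particle, and dedicated chaperones assemble the parts. In beta cells the proteasome clears misfolded proteins of the secretory pathway.

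By class, the members were 7 genes of the alpha rings, 6 of the beta rings, 8 of the base, 6 of the lid, 4 activators or inhibitors and 7 assembly chaperones. Psmc3ip and Psme3ip1 also met the rule, although their products are not subunits: the first is a partner of a meiotic recombinase and the second a binding partner of the activator subunit Psme3. Of 45 genes listed for these classes, 7 had no probe set with a single symbol and are not analysed here: Psma8, Psmb6, Psmb11, Psmc6, Psmd12, Psmd14 and Psme3. Another 6 probe sets named a proteasome gene beside other genes and were left out.

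Upstream sequences are shown for 4 genes on which the results turn: Psmd9 and Psmd7, which lay farthest apart between the clone sets and in opposite directions, Psme4, which was lowest in a single clone, and the catalytic subunit gene Psmb5. They come from the RefSeq annotation of the GRCr8 build, in the gene's direction, and end at the base before the outermost annotated start of the gene, so they lie outside its exons. The Psmd9 stretch is chr12:39018341-39018514 (minus strand), Psmd7 is chr19:52411317-52411566 (minus), Psme4 is chr14:108706393-108706642 (plus) and Psmb5 is chr15:32047380-32047629 (minus). Capitals mark matches on either strand to TGACNNNGC, the core of the antioxidant response element recognised by the factors Nfe2l1 and Nfe2l2, and to CCAAT, the box recognised by NF-Y.
Psmd9: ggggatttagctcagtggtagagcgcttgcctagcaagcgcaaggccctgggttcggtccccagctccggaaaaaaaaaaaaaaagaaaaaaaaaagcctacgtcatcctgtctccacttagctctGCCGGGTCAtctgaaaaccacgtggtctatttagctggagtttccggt
Psmd7: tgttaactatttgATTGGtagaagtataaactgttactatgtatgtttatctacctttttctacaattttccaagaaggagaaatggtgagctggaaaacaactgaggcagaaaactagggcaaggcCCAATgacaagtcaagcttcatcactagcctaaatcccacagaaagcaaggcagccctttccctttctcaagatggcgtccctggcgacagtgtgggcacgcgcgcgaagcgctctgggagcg
Psme4: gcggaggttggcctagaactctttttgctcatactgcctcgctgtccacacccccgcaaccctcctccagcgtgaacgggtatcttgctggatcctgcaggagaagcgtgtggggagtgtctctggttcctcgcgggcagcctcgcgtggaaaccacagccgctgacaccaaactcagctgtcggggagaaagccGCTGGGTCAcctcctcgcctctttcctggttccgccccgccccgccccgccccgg
Psmb5: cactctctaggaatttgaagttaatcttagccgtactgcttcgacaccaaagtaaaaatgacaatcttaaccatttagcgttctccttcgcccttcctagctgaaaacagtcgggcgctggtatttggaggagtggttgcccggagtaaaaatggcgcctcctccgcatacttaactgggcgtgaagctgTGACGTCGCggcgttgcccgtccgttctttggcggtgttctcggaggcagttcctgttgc

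The Psmd9, Psme4 and Psmb5 stretches each hold 1 match to TGACNNNGC, and the Psmd7 stretch holds 2 matches to CCAAT. Over the windows from 250 bases before to 50 after a start, 38 of the 40 member genes were matched to a window, and 7 of them (18.4%) held TGACNNNGC: Psma3, Psmb2, Psmb5, Psmd1, Psmd3, Psmd9 and Psme4. Of all 33469 windows, 12.1% held it. CCAAT was found for 20 of the 38 genes (52.6%) and in 37.5% of all windows. In the Psmb2 window a match to each motif shares a base with the other. These are letter matches, and nothing about binding was measured.

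Signals are on an arbitrary linear scale on which the trimmed mean of every array is 1000, and levels are not compared between probe sets. Differences are on the scale log2(signal + 21.8). All 43 member probe sets were bright enough to test, among 9520 in all. By the brightness limit the cultures read as beta cells: 7 of 7 beta cell marker genes with a probe set passed it. No acinar, ductal, delta, fibroblast, endothelial or leukocyte marker did. Levels of these markers were not even: Ins2 read 28816 in the parental line and 30224, 5381, 3953 and 4303 in clones 2, 16, 14 and 19. The alpha cell hormone gene Gcg was bright on every array, at 6875 in the parental line, 2064 in clone 2, 17772 in clone 16, 20550 in clone 14 and 24434 in clone 19; its part in the results was not tested. On the parental array the 5 added poly(A) controls were brighter than on the clones, 3.53-fold for lys and 1.27-fold to 1.57-fold for phe, dap, trpn and thr, and the hybridisation controls were at 0.803 of their signal. Since the parental line had 1 array, array handling and cell line cannot be told apart wherever the clones are set against it. Nothing states how the clones were derived or cultured apart, so p-values reflect scatter on these arrays alone. limma also draws the scatter of each probe set toward that of other probe sets of like brightness. The SEs given with differences come from the same fits. Each array measured a whole culture, so less RNA per cell and fewer expressing cells cannot be told apart.

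Most proteasome genes varied little over the 5 arrays. For 31 of 43 probe sets the highest array lay within 1.5-fold of the lowest on the scale of signal + 21.8 (72.1%), against 38.2% of all tested probe sets. On plain signals it was 30, since Psmg2 lies at the limit. Ratios between arrays in this paragraph include the offset. The median ratio of the highest to the lowest array was 1.39 for the members and 1.62 for all. Brighter probe sets varied less in general: among those with a mean signal of at least 1000, a limit added once the values were known, 45.4% lay within 1.5-fold, against 30 of 42 members. The rings, base and lid varied least, with 26 of 28 probe sets within 1.5-fold, and the exceptions were the alpha ring gene Psma1 (1.57-fold) and the lid gene Psmd7 (2.11-fold). Among the activators and the inhibitor it was 1 of 6, with 3 of the 6 from the single gene Psme4. More than 2-fold between the highest and the lowest array was reached by 5 member probe sets (11.6%, against 25.6% of all): Psmd7, Psmd9 and the 3 of Psme4.

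**Figure D1:**
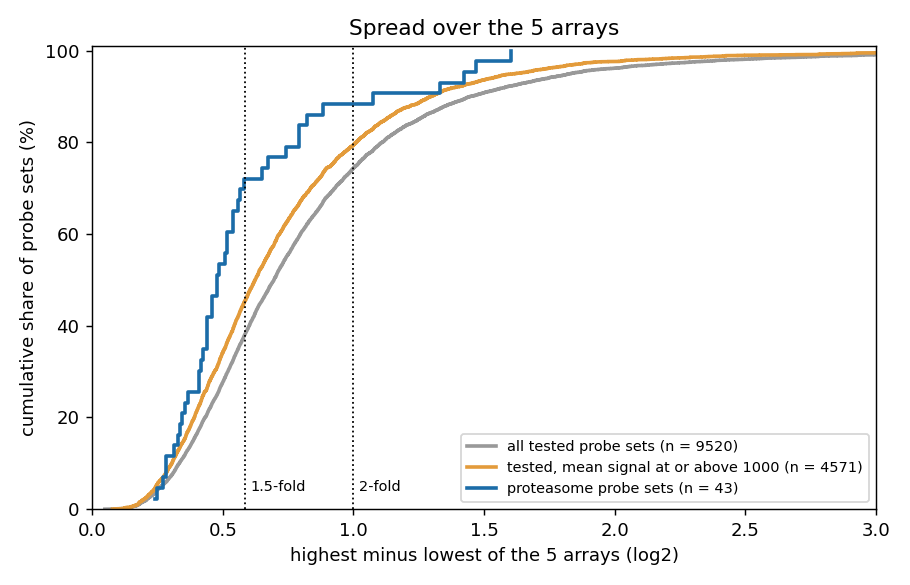
Cumulative share of probe sets (vertical axis, percent) by the log2 difference between their highest and lowest array (horizontal axis), for all 9520 tested probe sets, the 4571 with a mean signal of at least 1000, and the 43 proteasome probe sets. The proteasome curve reaches 72.1% at 1.5-fold, where all tested probe sets reach 38.2%.

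The clones were first set against the parental line. No proteasome gene passed. With Benjamini-Hochberg adjustment, limma called 0 of 43 (0% of all tested probe sets), each with an adjusted p = 1.00, and 0 had an unadjusted p under 0.05, against 3.67% of all. The mean of the clones was higher than the parental signal for 28 of 43 probe sets, with a median log2 difference of 0.061 against 0.0071 over all. This margin depended on the scaling: the medians were 0.026 against 0.017 under quantile normalization and 0.0028 against 0.0013 under cyclic loess. The median for the members was 0.031 without clone 2, 0.0996 without clone 14 and 0.11 without clone 19. The 4 clones gave medians of 0.12 (clone 2), 0.10 (clone 16), 0.11 (clone 14) and −0.02 (clone 19), against −0.00, 0.04, −0.02 and −0.01 over all probe sets. The parental array was the highest of the 5 for 1 member (2.33%), the second of the 2 probe sets of the lid gene Psmd11, whereas it was highest for 19.7% of all probe sets. All 4 clones lay above it for 9 members (20.9%, against 18.4% of all). All 4 lay below it for that Psmd11 probe set alone, which restates that the parental array was its highest.

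The second comparison set the clone sets against each other. limma called 0 of 43 members between the sets (0.420% of all tested probe sets were called), with adjusted p from 0.123 to 0.993. At an unadjusted p under 0.05 there were 6 members, against 14.8% of all: Psmd7, Psmd9, Psmg3, Psme3ip1, Psmc1 and Psmc3ip. Both 5-3 clones lay below both 1-1 clones for 15 members (34.9%, against 24.5% of all) and above them for 5 (11.6%, against 22.1%). Of the 15, 7 were base genes and 4 assembly chaperones. With a clone left out, the count below ranged from 17 to 25 (25 without clone 14). The count above ranged from 8 to 16 (16 without clone 19, 10 without clone 14 or clone 2, 8 without clone 16). With only 1 clone left in a set, both counts could only stay or rise. No share of all probe sets was computed for these settings. Median centring, with all clones kept, gave 13 below and 4 above, again without a share of all probe sets.

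**Figure D2:**
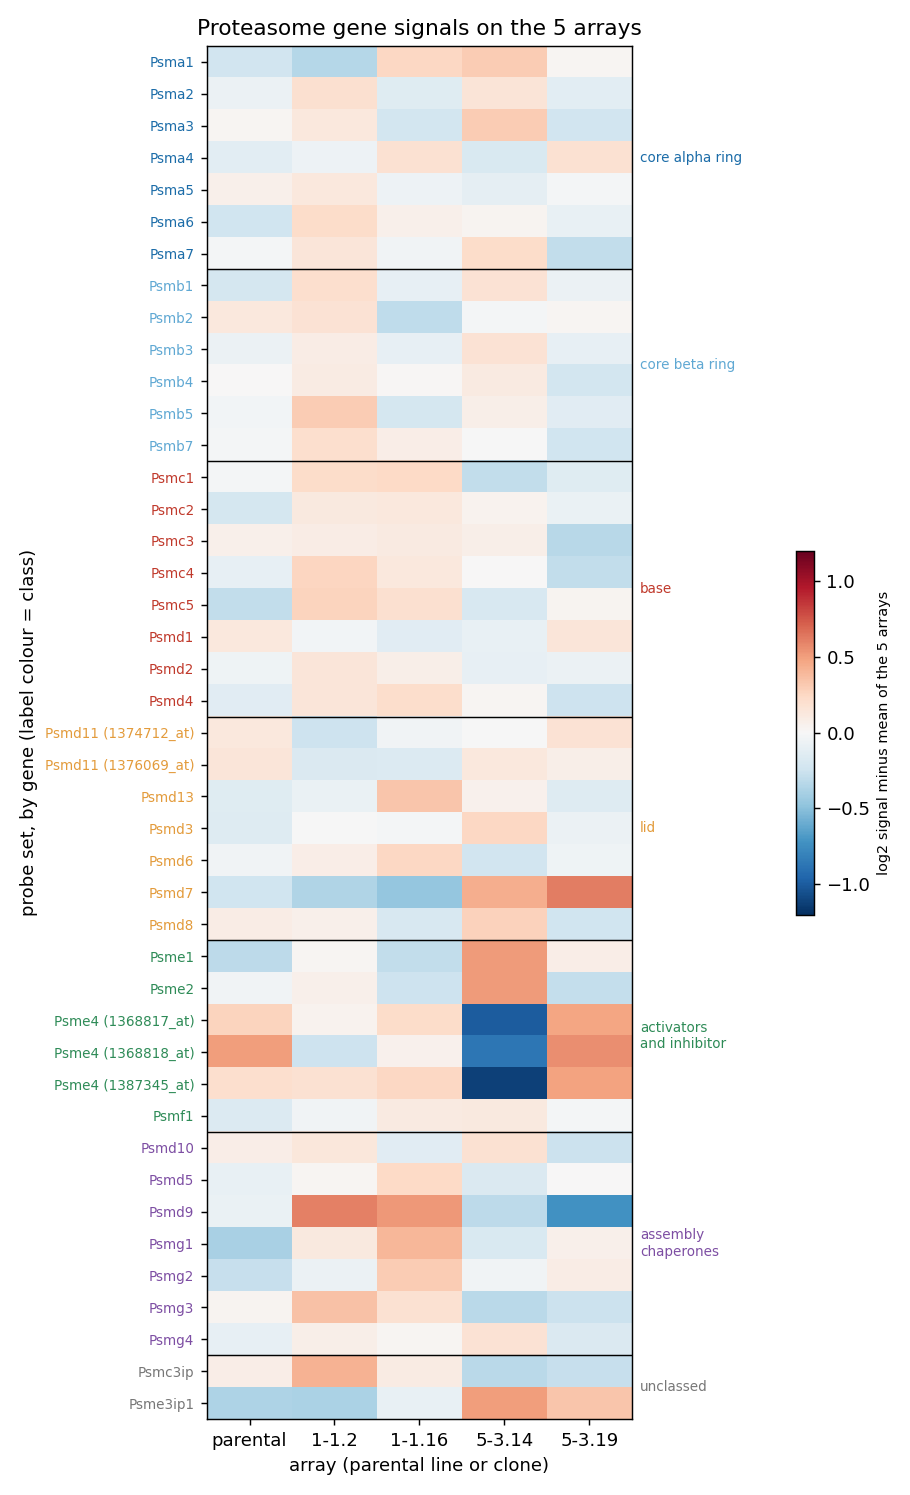
Each row is a proteasome probe set and each column an array, labelled by set and clone number; colour gives the log2 signal minus the row's mean over the 5 arrays, red for higher and blue for lower. Base genes other than Psmd1 are higher in both 1-1 clones than in both 5-3 clones, Psmd7 and Psmd9 run in opposite directions, and the 3 Psme4 rows are lowest in clone 14.

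The alpha ring genes differed little. Psma6 read 5300 in the parental line, 7283 in clone 2, 6538 in clone 16, 6412 in clone 14 and 5881 in clone 19. All 4 clones lay above the parental array, the only alpha ring gene of which this was so, with a log2 difference of 0.30 ± 0.21 (SE). Between the sets Psma6 differed by −0.17 ± 0.18, without overlap. Psma1 read 6651 in the parental line and 6163, 9266, 9687 and 7939 in clones 2, 16, 14 and 19. Its low arrays were the parental line and clone 2, and the sets overlapped (0.21 ± 0.24 between them, 0.29 ± 0.28 against the parental line). Psma4 read 1900, 1989, 2357, 1831 and 2364 in the same order. Clones 16 and 19, of different sets, were its high arrays (0.16 ± 0.27 against the parental line). The other 4 (Psma2, Psma3, Psma5 and Psma7) lay between −0.08 and 0.09 against the parental line.

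In the beta rings the catalytic subunit genes Psmb5, of the chymotrypsin-like site, and Psmb7, of the trypsin-like site, lay within 1.5-fold over the arrays. Psmb5 varied most of the 6 beta ring genes, at 1.43-fold against a median of 1.39 for all members, with the offset included. Psmb5 read 6855 in the parental line, 8681 in clone 2, 6063 in clone 16, 7368 in clone 14 and 6357 in clone 19. The sister clones of set 1-1 were the highest and the lowest array, so Psmb5 varied as much within that set as anywhere, and the differences were 0.04 ± 0.25 against the parental line and −0.08 ± 0.23 between the sets. Psmb7 read 10850, 12626, 11600, 10937 and 9301 in the same order. Both 5-3 clones lay below both 1-1 clones (−0.26 ± 0.17, limma adjusted p = 0.553), and the parental signal was just under that of clone 14. Against the parental line Psmb7 differed by 0.03 ± 0.21.

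Of the structural beta subunits, Psmb1 was the only one with all clones above the parental line. It read 10882 there, 14534 in clone 2, 11804 in clone 16, 14204 in clone 14 and 11977 in clone 19, a difference of 0.26 ± 0.19. Psmb2 read 11696, 12100, 8680, 10525 and 10848, with clone 16 the low array (−0.16 ± 0.22). Psmb3 read 12352, 13808, 12103, 14584 and 12077 (0.08 ± 0.18), and Psmb4 read 14177, 15196, 14261, 15269 and 12155 (−0.11 ± 0.18 between the sets). For Psmb1, Psmb3 and Psmb4 the 2 brightest arrays were clones 2 and 14, which belong to different sets.

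For most core genes, sister clones stood in the same order. Clone 2 was above its sister, clone 16, for 11 of 13 alpha and beta ring genes, against 44.5% of all probe sets and 50.8% of those with a mean signal of at least 1000. Clone 14 was above its sister, clone 19, for 10 of 13, against 52.1% of all and 56.4% of the bright ones. For the base and lid together these counts were 7 and 8 of 15. One of clones 2 and 14 was the brightest array for 6 of 7 alpha ring genes and all 6 beta ring genes. Over all tested probe sets, clone 2 was the brightest array for 15.7% and clone 14 for 21.1%. Among the beta cell markers, clone 2 was above clone 16 for 5 of 7 and clone 14 above clone 19 for 3 of 7. Most core probe sets read far above 1000, and probe sets of like brightness were not compared. All 13 core genes were read on the same arrays, so an array-wide shift of bright probe sets cannot be told apart from one of the core. The sister order and these counts were not examined under other scalings. The median difference between the sets was −0.06 for the alpha rings and −0.05 for the beta rings, against −0.04 over all tested probe sets. With a clone left out these medians took either sign: −0.18 to 0.13 for the alpha rings (0.13 without clone 19) and −0.17 to 0.14 for the beta rings (0.14 without clone 2).

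The base genes lay mostly on one side between the sets. For 7 of 8 both 5-3 clones lay below both 1-1 clones, where 24.5% of all probe sets did, and the exception was Psmd1. The median difference was −0.26, against −0.04 over all, and stayed between −0.29 and −0.17 under every alternative setting. The count of base genes without overlap was 6 under median centring and 7 under the other settings. Leaving out a clone could not lower this count. None of the base genes passed limma's threshold. Psmc1 to Psmc5 encode ATPases of the unfolding ring. Psmc1 read 5736 in the parental line, 6795 in clone 2, 6883 in clone 16, 4733 in clone 14 and 5270 in clone 19, which put the parental line between the sets. Its difference between the sets was −0.45 ± 0.18 (limma adjusted p = 0.310). Psmc4 read 6115, 7868, 7188, 6606 and 5336 (−0.34 ± 0.19). Here the parental line lay among the 5-3 clones.

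Psmc5 and Psmc2 were the ATPase genes that were lowest in the parental line. Psmc5 read 2593 there, 3844 in clone 2, 3665 in clone 16, 2795 in clone 14 and 3272 in clone 19, or 0.37 ± 0.27 against the parental line and −0.31 ± 0.20 between the sets. Psmc2 read 8414, 10580, 10638, 9993 and 9240 (0.26 ± 0.18 against the parental line). Psmc3 was even on 4 arrays and low on the last: 5863 in the parental line, 6004, 6068 and 5913 in clones 2, 16 and 14, and 4475 in clone 19. Psmd4, a receptor for ubiquitin chains, read 3352, 4077, 4254, 3743 and 3094 (0.17 ± 0.26 against the parental line, −0.29 ± 0.20 between the sets). Clones 2 and 16 were its high arrays. The scaffold gene Psmd2 gave −0.19 ± 0.17 between the sets, also without overlap, and the other scaffold gene Psmd1 gave 0.11 ± 0.23 with overlapping clones.

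Lid genes showed no common direction: their median difference between the sets was 0.10, or −0.062 without clone 14 and 0.26 without clone 19. Psmd7, the structural partner of the deubiquitinating subunit, had the largest difference between sets with the 5-3 clones higher. It read 2804 in the parental line, 2577 in clone 2, 2394 in clone 16, 4490 in clone 14 and 5072 in clone 19. The parental line lay beside the 1-1 clones, and both 5-3 clones stood well above all 3. The difference was 0.94 ± 0.20 on the log2 scale (limma adjusted p = 0.123, unadjusted p = 0.00243), within 0.85 to 1.02 over the alternatives, with adjusted p from 0.0795 to 0.476. Its probe set is the only one for Psmd7, so no second probe set checks it.

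Psmd6 went the other way within the lid. It read 3609 in the parental line, 3926 and 4419 in clones 2 and 16, and 3165 and 3592 in clone 14 and 19. The sets did not overlap (−0.30 ± 0.20), and the parental line lay between them. Psmd11 had 2 probe sets, with the sets in the same order: the first read 4979 in the parental line, 3829, 4424, 4561 and 5151 in clones 2, 16, 14 and 19, and the second 4702, 3785, 3793, 4641 and 4476. Both put the 5-3 clones above the 1-1 clones, by 0.23 ± 0.20 and 0.27 ± 0.19. Psmd3 read 1827, 2036, 2010, 2431 and 1937, lowest in the parental line (0.20 ± 0.26). Psmd13 read 2400, 2521, 3344, 2756 and 2380, with clone 16 the high array (0.18 ± 0.28). Psmd8 had overlapping sets (0.09 ± 0.24). Sem1, a small lid subunit outside the naming rule, read 11139, 13568, 10554, 13074 and 10413, with clones 2 and 14 bright as for the core genes.

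**Figure D3:**
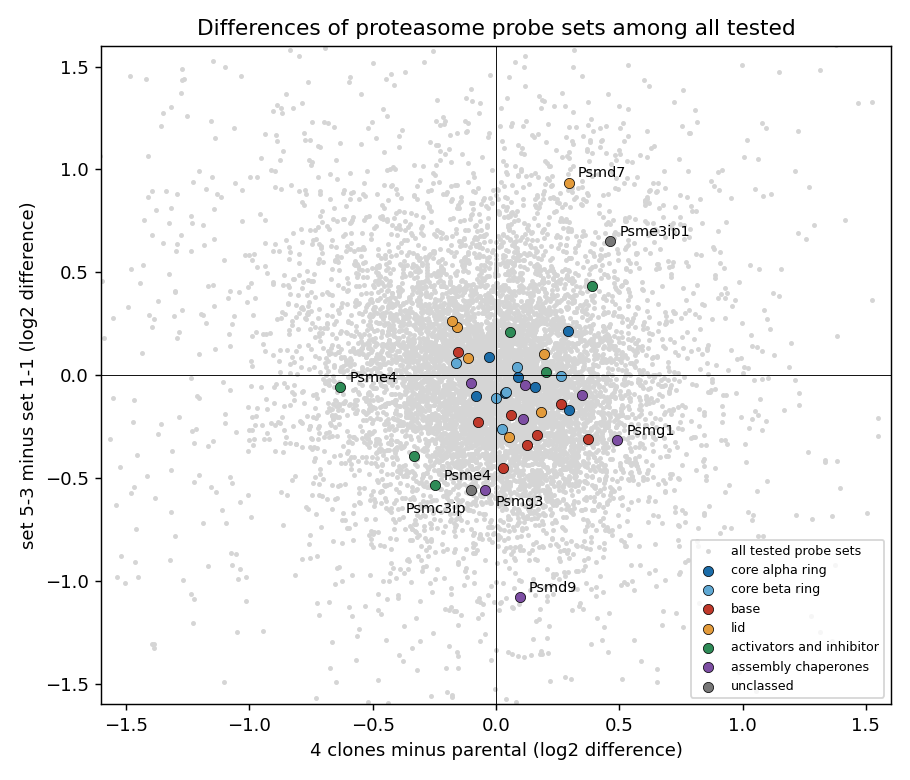
For each probe set, the log2 difference of the 4 clones from the parental line (horizontal axis) and of set 5-3 from set 1-1 (vertical axis), with proteasome probe sets coloured by class over all tested probe sets in grey; 186 of those lie outside the plotted range. Most proteasome points lie near the centre, with Psmd7 at 0.94 and Psmd9 at −1.08 on the vertical axis.

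The 6 probe sets of the activators and the inhibitor had a median ratio of 2.18 between the highest and the lowest array, with the offset included. Of the 6, 3 belong to Psme4, and with the brightest probe set of each of the 4 genes the median was 1.75. Their median difference between the sets was −0.022 and took either sign: −0.34 without clone 19, 0.24 without clone 14, 0.071 without clone 16, −0.13 without clone 2 and 0.11 with the brightest probe set of each gene. Psme4 encodes a large activator found mainly in the nucleus, and its 3 probe sets ordered the 5-3 clones alike. The first read 2994 in the parental line, 2561 in clone 2, 2901 in clone 16, 1234 in clone 14 and 3459 in clone 19. The second read 1782, 1047, 1299, 675 and 1846, and the third 2266, 2245, 2354, 897 and 2770. All 3 were lowest in clone 14 and highest in its sister, clone 19, and the ratio of the signals on these arrays was 2.80, 2.73 and 3.09. The low signal in clone 14 rests on 1 array and has no replicate. The sisters lay at opposite ends, and the difference between sets depended on which was kept: for the third probe set it was −0.54 ± 0.48 (limma adjusted p = 0.671), 0.27 without clone 14 (adjusted p = 0.648) and −1.34 without clone 19, where it passed (adjusted p = 0.0343; the alternatives spanned 0.0343 to 0.947). Without clone 19, 2.35% of all tested probe sets passed, against 1 of 43 members. Against the parental line the probe sets gave −0.33 ± 0.53, −0.63 ± 0.50 and −0.25 ± 0.58. Without clone 14 the first gave −0.021 and the second −0.39, and without clone 19 they gave −0.51 and −0.86.

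Psme1 and Psme2 encode the alpha and beta subunits of the activator PA28, which interferon induces, and in the rat genome only 1 gene, Emc9, lies between them. Psme1 read 2746 in the parental line, 3467 in clone 2, 2775 in clone 16, 4869 in clone 14 and 3606 in clone 19. All clones were above the parental line (0.39 ± 0.33), though clone 16 barely so, and both 5-3 clones were above both 1-1 clones (0.43 ± 0.24, limma adjusted p = 0.473). That difference was 0.22 without clone 14, 0.27 without clone 16, 0.59 without clone 2 and 0.65 without clone 19, and the one from the parental line was 0.25 without clone 14. Psme2 read 2860, 3081, 2487, 4217 and 2425 in the same order. For both genes clone 14 was the brightest array and clone 2 the brighter of its set, and the sets overlapped for Psme2 (0.21 ± 0.30). Psmf1, which encodes the inhibitor PI31, read 1726, 1881, 2086, 2105 and 1903, lowest in the parental line by a little (0.20 ± 0.25).

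All 7 assembly chaperone genes had a lower mean in set 5-3, as 54.2% of all probe sets did, and 4 of them lay lower without overlap, as 24.5% of all did. Their median difference was −0.21, against −0.04 over all, and ranged from −0.32 (without clone 2) to −0.17 (without clone 16) over the alternatives. Psmd9 differed most. Its product helps to assemble the base and is also known as Bridge-1, described as a coactivator of insulin gene transcription. Psmd9 read 2168 in the parental line, 3482 in clone 2, 3288 in clone 16, 1839 in clone 14 and 1372 in clone 19. The parental line lay between the sets, which did not overlap. Set 1-1 averaged 3385 ± 137 and set 5-3 1606 ± 330 (SD, n = 2 each), a log2 difference of −1.08 ± 0.23. It did not pass limma's threshold (adjusted p = 0.123, unadjusted p = 0.00248). Without clone 14 it did (−1.29, limma adjusted p = 0.0384), and adjusted p spanned 0.0384 to 0.385 among the alternatives. Without clone 14, 2.32% of all tested probe sets passed, and Psmd9 was the 1 of 43 members that did. The insulin gene Ins2 read 28816 in the parental line and 30224, 5381, 3953 and 4303 in clones 2, 16, 14 and 19. Psmd9 and Ins2 were both under the parental signal in both 5-3 clones, and clone 16 was low in Ins2 and high in Psmd9. The other insulin gene, Ins1, read 34381 to 42217 over the arrays. A link between Psmd9 and the insulin genes was not tested.

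Psmg3, which encodes a chaperone of the core's alpha rings, read 3535 in the parental line, 4405 in clone 2, 3923 in clone 16, 2755 in clone 14 and 2885 in clone 19. The parental line again lay between the sets (−0.56 ± 0.20, limma adjusted p = 0.251). Psmg1 and Psmg2, whose products form another chaperone dimer of the alpha rings, were lowest in the parental line. Psmg1 read 1782 there and 2543, 3099, 2070 and 2450 in clones 2, 16, 14 and 19, or 0.49 ± 0.29, the largest positive difference of any member. Psmg2 read 1190, 1379, 1791, 1403 and 1541 (0.35 ± 0.27). Clone 16 was the high array for both. Psmg4, the partner of Psmg3, read 3399, 3815, 3687, 4109 and 3209 and did not follow it: clone 14 was its brightest array (0.12 ± 0.24 against the parental line, −0.05 ± 0.21 between the sets). Psmd5 and Psmd10, chaperones of the base ATPases, gave −0.21 ± 0.20 and −0.04 ± 0.25 between the sets.

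**Figure D4:**
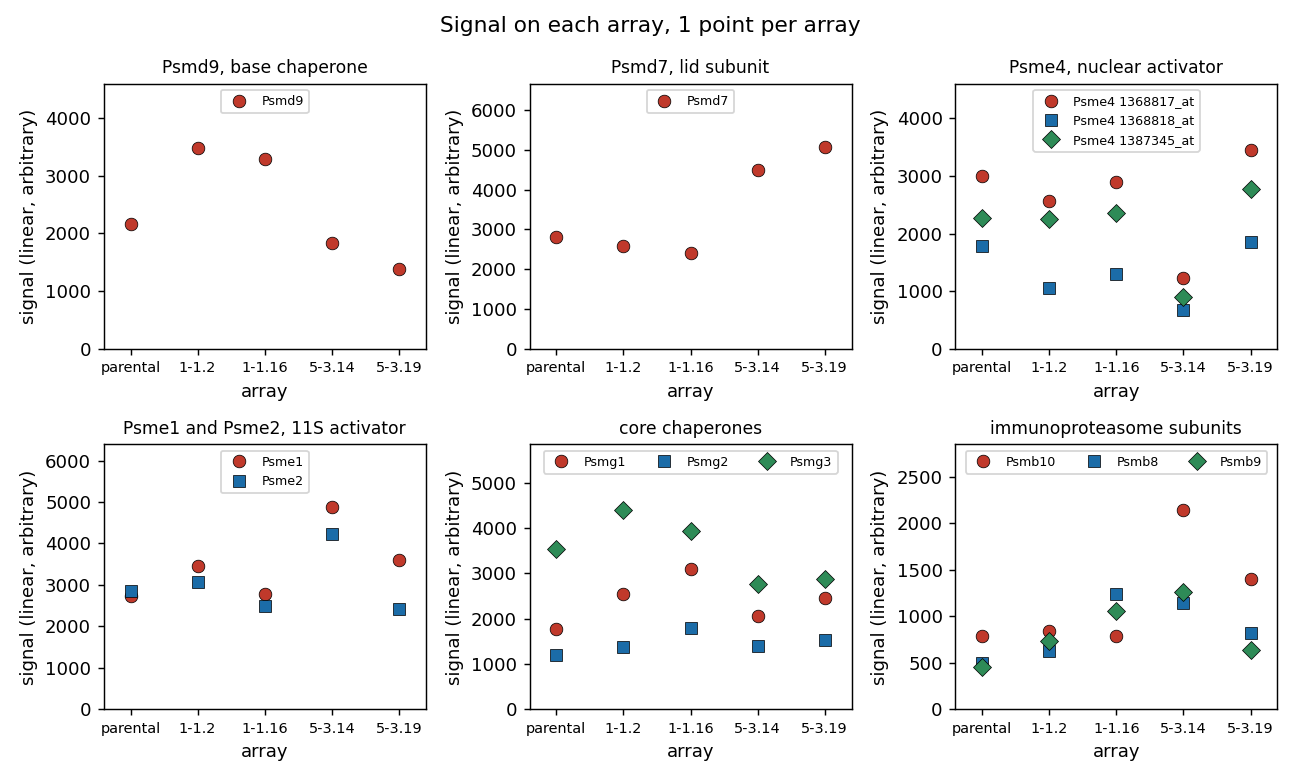
Linear signal (vertical axes, arbitrary units, from 0) on each of the 5 arrays (horizontal axes), 1 point per array and probe set, for Psmd9, Psmd7, Psme4, Psme1 and Psme2, the core chaperones Psmg1, Psmg2 and Psmg3, and the immunoproteasome genes. Psmd9 is high in both 1-1 clones and Psmd7 in both 5-3 clones, and the 3 Psme4 probe sets are all lowest in clone 14.

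The genes that met the naming rule without being subunits differed between the sets too. Psme3ip1 read 867 in the parental line, 862 and 1061 in clones 2 and 16, and 1608 and 1425 in clone 14 and 19. Both 5-3 clones stood above the other 3 arrays (0.65 ± 0.23, limma adjusted p = 0.254; 0.46 ± 0.38 against the parental line). Psmc3ip read 1145, 1454, 1157, 860 and 890, lower in both 5-3 clones than on the other arrays (−0.56 ± 0.23, limma adjusted p = 0.326; −0.10 ± 0.35 against the parental line).

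The 3 immunoproteasome genes, whose products replace the catalytic beta subunits after interferon, varied more than the beta ring members. Psmb8 read 502 in the parental line, 633 in clone 2, 1246 in clone 16, 1147 in clone 14 and 817 in clone 19. Psmb9 read 453, 734, 1064, 1266 and 636, and Psmb10 785, 840, 790, 2143 and 1400. All 3 were above the parental signal in all 4 clones, where 18.4% of all probe sets and 2 of 13 core members were, with differences of 0.86, 0.94 and 0.59, though Psmb10 in clone 16 exceeded it only slightly. Their ratios of the highest to the lowest signal were 2.48 to 2.79, against at most 1.57 for the core members. Over all tested probe sets, 25.6% differed more than 2-fold, with the offset included. The immunoproteasome signals (453 to 2143) were lower than those of the beta ring members (6063 to 15269), and brighter probe sets varied less in general. Whether brightness accounts for the contrast was not tested. None passed limma's threshold in either comparison, and Psmb10 had the lowest adjusted p between the sets (0.159, difference 1.07).

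Other genes of the pathway were taken from lists of ubiquitin supply, shuttling, bound factors and transcriptional control, and limma with Benjamini-Hochberg adjustment called 0 of their 40 tested probe sets in either comparison (at an unadjusted p under 0.05, 1 against the parental line, where 3.67% of all were, and 2 between the sets, where 14.8% were). Among other parts and bound factors of the proteasome, 6 of 13 probe sets had a higher mean in the clones than in the parental line and 3 of 13 a higher mean in set 5-3. For shuttle and extraction factors these counts were 8 and 6 of 11, with 10 of 11 within 1.5-fold over the arrays. For the ubiquitin-activating enzymes they were 2 and 0 of 2. For the factors that control proteasome gene transcription they were 3 and 5 of 14, and 7 of 14 lay below the parental signal in all 4 clones, where 19.7% of all probe sets did. Those 7 came from 4 of the 9 genes, with a pair of probe sets each for Nfe2l1, Nfya and Stat3 and a single one for Nfyc. The remaining probe sets of Nfe2l1 and Nfyc had clones on both sides of the parental signal. So did Nfe2l2, whose mean was higher in the clones (0.47 ± 0.36). All 4 clones lay above the parental signal for 2 of 14, Ddi2 and Mafk, against 18.4% of all. These counts rest on the same single parental array as those of the members.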

How the data were processed

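Total RNA of 5 cultures was hybridised to single-colour rat arrays. The table that the authors deposited gives every probe set a linear signal intensity on each array. The sources used here name neither the software nor the background correction behind it. The trimmed means (2% off each end) were 1000.24 to 1000.28, so signals were used as deposited. Median signals were 342 to 372. Precision is limited by how few arrays there are. Of 15923 probe sets, 57 controls were left out. All 43 member probe sets matched the GRCr8 gene table, with 0 symbols changed.

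From the deposited intensities log2(signal + 21.8) was computed, the offset being the 10th percentile of positive signals. Probe sets with a mean at or above the 40th percentile (a signal of 194) were tested with limma 3.58.1 in R 4.3.3 (eBayes with an intensity trend, Benjamini-Hochberg over all 9520, threshold 0.05): 4 clones against 1 parental array (3 residual degrees of freedom, the parental array assumed to vary like the clones), and set 5-3 against set 1-1 in a fit with 3 groups (2 degrees of freedom). The code was tested on simulated data. Clone numbers name the clones and pair nothing. Members, gene lists and tests were chosen with earlier results of these data known, so lists are described by counts and medians, without a test. Values on every array are given for the measured catalytic subunits and, in each class, for up to 3 probe sets with the largest difference from the parental line and up to 2 with the largest difference between sets; Psmc3, Psmd11, Psme2, Psmf1, Sem1 and the genes named from the transcription list were added after their values were seen. Alternatives covered scaling, offset, filter, variance model, choice of probe set, grouping and leaving out each clone.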

Additional observations from a re-analysis of the deposited data

Results flagged for a closer look

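Psmc3, the base ATPase gene, had 1 clone far from the others: on the log2 scale the gap between clone 19 (4475) and the next lowest, clone 14 (5913), was 0.915 of the range of the 4 clones. This exceeded Dixon's critical value for 4 samples, and Psmc3 was the single probe set of 43 examined that did. Chance alone gives this for about 1 group in 20.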

How the results depend on the processing

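With 1 array per clone, a difference between sets rests on 2 clones each, and 1 clone can decide it. Calls between the sets numbered 0 and became 0 to 1 when a clone was left out (Psmd9 without clone 14, Psme4 without clone 19; the lone sister is then assumed to vary like the other groups; 2.32% and 2.35% of all tested probe sets passed then, against 0.420%), and 6 at an unadjusted p under 0.05; against the parental line they numbered 0 under every setting. The median difference between sets was −0.18 to −0.029 with a clone left out. Median centring gave medians of 0.20 for clone 2 and 0.18 for clone 14 against the parental line, each higher than as deposited. Quantile normalization gave 0.11 and 0.065 for these clones and cyclic loess 0.069 and 0.071, each lower. Members with all clones above the parental array numbered 9 to 16 with a clone left out, and those with all clones below 1 to 5. With fewer clones these counts could only stay or rise. Members with all clones below numbered 0 under median centring and with the brightest probe set per gene. They numbered 2 under quantile normalization and cyclic loess. The share of all probe sets was not computed under these settings, so the counts cannot be set against it.

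Among the 37 single-gene results followed over the settings, directions turned for 7 genes. Members outside those results were not followed for direction. Against the parental line, quantile normalization gave −0.0050 for Psmb3, −0.0097 for Psmb5 and −0.034 for Psmb7, and cyclic loess −0.020 for Psmb5 and −0.051 for Psmb7. With a clone left out, Psmb5 ranged from −0.061 to 0.11, Psmb7 from −0.038 to 0.11 and Psmc3ip from −0.25 to 3.4e-06. Between the sets, Psma1 ranged from −0.079 to 0.51, Psmb4 from −0.28 to 0.053, Psmb5 from −0.34 to 0.17 and Psme4 from −1.34 to 0.27. The counts of members on one side of the other set and within 1.5-fold were added after seeing the data. The cause of these shifts was not tested. No paired analysis was possible because the labels give the clones no shared numbers.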
